A study of Mus musculus with 6 samples.

Results

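Sst, Cort, Vip, Grp, Nms and Prok2 encode somatostatin, cortistatin and 4 secreted peptides known from the suprachiasmatic nucleus, the clock of the hypothalamus. All probes whose transcript accession maps to these 6 genes were taken, whatever their values. The genes themselves were chosen with earlier results of these data known. Each gene had 1 probe, so the members are 6 of 22863 tested genes. The tissue was hypothalamus, taken at 16 weeks of age from male mice of the C57BL/6J strain, and its RNA was hybridised to 6 one-colour arrays, 2 for each genotype. Trsp-RIPKO mice carried TrspFlox/Flox with RIP-Cre, Trsp-Ins1KO mice carried TrspFlox/Flox with Ins1-Cre, and TrspFF mice, the controls, carried TrspFlox/Flox without a Cre. The floxed alleles are thus common to all 3 groups. Trsp encodes the transfer RNA that brings selenocysteine to selenoproteins. RIP-Cre and Ins1-Cre use insulin promoters, and RIP-Cre is known to act in some hypothalamic neurons as well as in pancreatic beta cells. In Trsp-RIPKO, deletion would therefore touch only part of the cells in the sampled tissue. Whether Ins1-Cre deleted Trsp in any cells of this tissue was not measured here. The labels do not say whether the arrays of a genotype came from separate animals, so the p-values rest on differences between arrays that may be technical only.

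Somatostatin is an inhibitory peptide. Neurons of the periventricular hypothalamus release it to hold back growth hormone, and interneurons in many brain regions make it too. Cortistatin is its close relative, binds the same receptors and is known mainly from interneurons of cortex and hippocampus. Vasoactive intestinal peptide and gastrin-releasing peptide are made by neurons of the suprachiasmatic core that receive light input, neuromedin S by a wider set of suprachiasmatic neurons that helps set the rhythm, and prokineticin 2 is a rhythmic output signal of that nucleus. Vip and Grp are also made by interneurons and other neurons outside the hypothalamus.

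Short stretches of promoter are shown because 2 elements known for their part in the control of peptide genes can be read in them. Somatostatin transcription is the textbook case of control through a cAMP response element, and E-boxes are the sites of the CLOCK and BMAL1 factors. The search covered the 150 bases before the RefSeq start of each gene (build GRCm38.p6), on both strands. The full cAMP response element was TGACGTCA, its shorter form TGACG (which the full element contains on each strand) and the E-box CACGTG. Of the 6 members 5 had an entry. The 30 bases around each match are given on the strand of the gene, with the matched letters in capitals.
Sst: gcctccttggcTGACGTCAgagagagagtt
Cort: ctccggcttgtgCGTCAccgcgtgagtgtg
Vip: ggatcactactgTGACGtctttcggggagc
Prok2: tggggcgcggggCACGTGcgcgtgtgcgcg

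The Sst stretch lies at chr16:23890874-23890903 on the minus strand, with the full element 48 to 41 bases before the start. It sits inside the annotated extent of the gene, which includes a longer transcript. Cort is at chr4:149126764-149126793 (minus strand), where the short form is read on the opposite strand. Vip is at chr10:5639127-5639156 (plus strand) and Prok2 at chr6:99726510-99726539 (minus strand). Among 32851 windows of the same length, 1.36% held the full cAMP response element, 13.3% the short form and 4.3% the E-box. These matches describe the letters, and the arrays do not measure whether a factor binds there. Nms had none of the 3 elements in its window.

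Levels are log2 processed signal minus the 75th percentile of the array, so a level of 0 equals that percentile and a difference of 1 is a 2-fold difference. That percentile lay between 1391 and 2137 signal units, an array detected 68.9% to 72.0% of its probes well above background, and 0 were saturated. All 6 members were well above background on all 6 arrays; the faintest such level on each array lay between -6.60 and -6.05. Replicate arrays differed with an SD of 0.41 in Trsp-RIPKO, 0.44 in Trsp-Ins1KO and 0.51 in TrspFF (log2, over tested genes). No probe was named Trsp, so the deletion was not checked. Both TrspFF arrays shared 1 slide and scan and all 4 knockout arrays another, so in every comparison with TrspFF slide and genotype cannot be told apart. The arrays of Trsp-RIPKO and Trsp-Ins1KO shared a slide. In addition, the deposited value table and the scanner files carry opposite names for the knockouts: all 4 knockout columns of the table follow arrays of the other knockout (lowest r of a best match 0.99997). Groups are named here as in the scanner files, and under the other naming the values of the knockouts change places. The comparison of both knockouts with TrspFF does not depend on the naming.

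Sst, the somatostatin gene, was higher on every knockout array than on either TrspFF array, by margins that did not pass the adjusted test. Its level was 3.43 and 3.54 on the Trsp-RIPKO arrays, 3.37 and 3.30 on the Trsp-Ins1KO arrays, and 2.91 and 3.20 on the TrspFF arrays. The knockouts did not overlap each other either, with Trsp-RIPKO above Trsp-Ins1KO. The difference was 0.43 for Trsp-RIPKO minus TrspFF (SE 0.127, limma, adjusted p = 0.145), and 0.28 for Trsp-Ins1KO minus TrspFF (SE 0.127, adjusted p = 0.239). Taken over both knockouts it was 0.36 (SE 0.110, limma, adjusted p = 0.135). None of these passed the threshold of 0.05 after adjustment over all tested genes. Between the knockouts, neighbours in the order of levels, Sst differed by 0.15 with a 95% interval of 0.33 to either side (Trsp-RIPKO minus Trsp-Ins1KO, adjusted p = 0.516). The Sst probe is printed at 10 spots, of which 9 or 10 carried no quality flag, and the signal varied by 2.05% to 3.88% between spots of 1 array. The TrspFF arrays lay 0.29 apart.

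**Figure D1:**
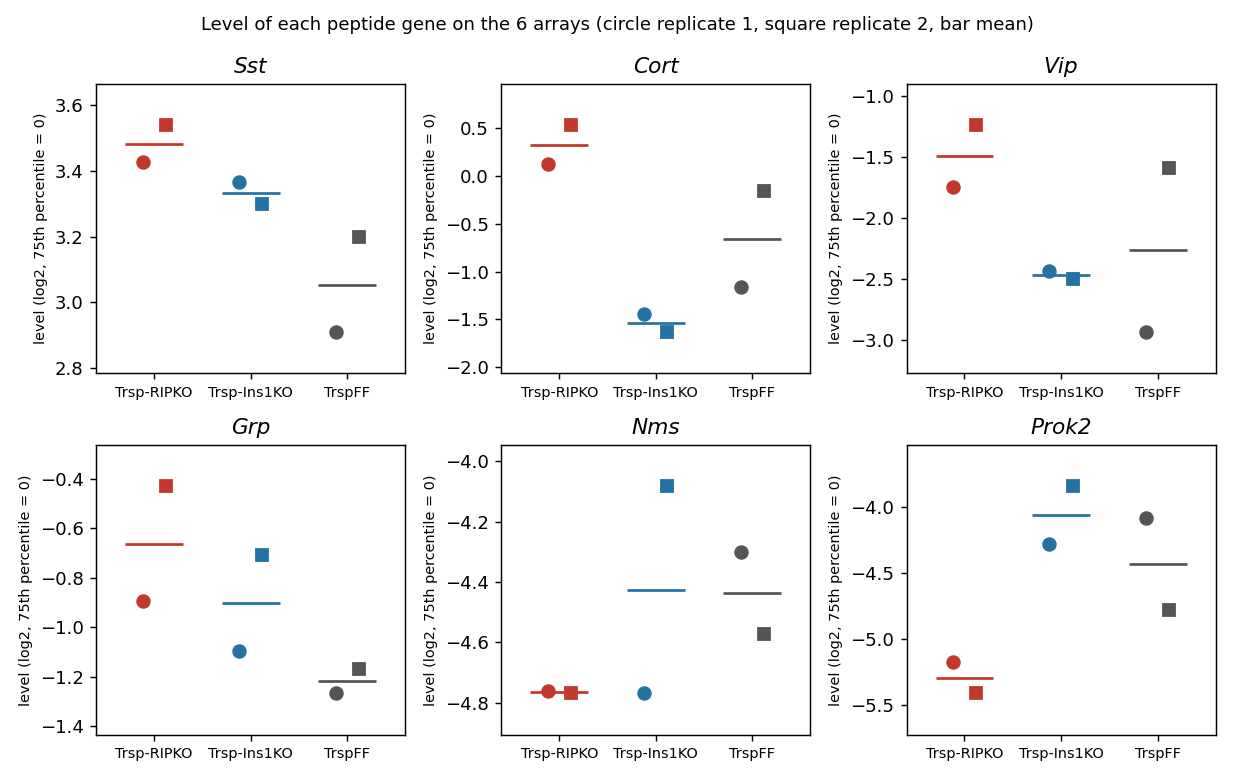
Level of each member (log2 signal minus the array's 75th percentile) on the 2 Trsp-RIPKO, 2 Trsp-Ins1KO and 2 TrspFF arrays, with circles for replicate 1, squares for replicate 2 and a bar at the group mean; each panel has its own scale. All knockout arrays of Sst and Grp lie above both TrspFF arrays, Cort is highest in Trsp-RIPKO and lowest in Trsp-Ins1KO, and Prok2 is lowest in Trsp-RIPKO.

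Cort separated the knockouts most. Its level was 0.12 and 0.53 on the Trsp-RIPKO arrays, -1.44 and -1.63 on the Trsp-Ins1KO arrays, and -1.16 and -0.15 on the TrspFF arrays. The 3 genotypes did not overlap: Trsp-RIPKO was highest, TrspFF lay between, and Trsp-Ins1KO was lowest. For Trsp-RIPKO minus Trsp-Ins1KO the difference was 1.87 (SE 0.362, limma, adjusted p = 0.263), and it did not pass the threshold in the fit of all 6 arrays. With only the 4 knockout arrays in the fit the same difference of 1.87 had an SE of 0.179 and passed (limma, adjusted p = 0.0451), in a fit that called 319 genes (1.4% of those tested). Leaving out either TrspFF array gave the same fit for this comparison, since a lone TrspFF array adds nothing to the estimated spread. Against TrspFF, Cort differed by 0.99 in Trsp-RIPKO (SE 0.362, adjusted p = 0.195) and by -0.88 in Trsp-Ins1KO (SE 0.362, adjusted p = 0.210; limma). Without TrspFF replicate 1 these differences were 0.48 and -1.38, and without TrspFF replicate 2 they were 1.49 and -0.38. The opposite values left 0.05 over both knockouts (adjusted p = 0.934, limma). The TrspFF arrays themselves lay 1.01 apart for Cort, more than the arrays of either knockout.

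Vip had its widest spread within the control group. Its level was -1.75 and -1.24 on the Trsp-RIPKO arrays, -2.43 and -2.50 on the Trsp-Ins1KO arrays, and -2.94 and -1.59 on the TrspFF arrays, 1.34 apart. The TrspFF arrays enclosed both Trsp-Ins1KO arrays and overlapped Trsp-RIPKO, while the knockouts did not overlap each other. The difference was 0.77 for Trsp-RIPKO minus TrspFF (SE 0.466, adjusted p = 0.367), -0.20 for Trsp-Ins1KO minus TrspFF (adjusted p = 0.805), and 0.97 for Trsp-RIPKO minus Trsp-Ins1KO (SE 0.466, adjusted p = 0.311; limma). Without TrspFF replicate 1 the Trsp-RIPKO difference was 0.10 and without TrspFF replicate 2 it was 1.44. The Trsp-Ins1KO difference was -0.87 and 0.47 under the same omissions, so its direction turned. Over both knockouts Vip differed by 0.28 (SE 0.404, adjusted p = 0.701, limma), and this too changed sign, to -0.39, without TrspFF replicate 1.

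Grp, like Sst, was above both TrspFF arrays on each of the 4 knockout arrays, by smaller margins in Trsp-Ins1KO. Its level was -0.89 and -0.43 on the Trsp-RIPKO arrays, -1.09 and -0.71 on the Trsp-Ins1KO arrays, and -1.27 and -1.17 on the TrspFF arrays. The nearest knockout and TrspFF arrays were 0.07 apart. Grp differed by 0.56 for Trsp-RIPKO minus TrspFF (SE 0.210, limma, adjusted p = 0.203), by 0.32 for Trsp-Ins1KO minus TrspFF (adjusted p = 0.381) and by 0.44 over both knockouts (SE 0.182, adjusted p = 0.216). The knockouts overlapped, with a difference of 0.24 and a 95% interval of 0.54 to either side (adjusted p = 0.533, limma).

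Nms and Prok2 had low processed signals, between 50.2 and 135 units over the arrays, though each was well above background on every array. Nms had levels of -4.76 and -4.77 on the Trsp-RIPKO arrays, -4.77 and -4.08 on the Trsp-Ins1KO arrays, and -4.30 and -4.57 on the TrspFF arrays. Trsp-Ins1KO replicate 2 stood highest and its partner array was level with Trsp-RIPKO. The difference was -0.33 for Trsp-RIPKO minus TrspFF (SE 0.248, adjusted p = 0.451), 0.01 for Trsp-Ins1KO minus TrspFF (adjusted p = 0.982), -0.16 over both knockouts (adjusted p = 0.684) and -0.34 for Trsp-RIPKO minus Trsp-Ins1KO (adjusted p = 0.457; limma). The 95% interval of a single knockout's Nms difference reached 0.64 to either side.

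Prok2 had levels of -5.17 and -5.41 on the Trsp-RIPKO arrays, -4.28 and -3.84 on the Trsp-Ins1KO arrays, and -4.08 and -4.78 on the TrspFF arrays. Both Trsp-RIPKO arrays were below every other array, and Trsp-Ins1KO overlapped TrspFF. The difference was -0.87 for Trsp-RIPKO minus TrspFF (SE 0.285, limma, adjusted p = 0.169), 0.37 for Trsp-Ins1KO minus TrspFF (adjusted p = 0.447) and -0.25 over both knockouts (adjusted p = 0.572). For Trsp-RIPKO minus Trsp-Ins1KO it was -1.23 (SE 0.285, limma, adjusted p = 0.263). Without TrspFF replicate 1 the Trsp-RIPKO difference of Prok2 from TrspFF was -0.52, and without TrspFF replicate 2 it was -1.21. With normexp correction of the background the Trsp-RIPKO difference from TrspFF was -0.29 and that from Trsp-Ins1KO -0.48. Prok2 and Cort thus set the knockouts apart in opposite directions, and the other 4 members by less than 1 on the log2 scale.

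**Figure D2:**
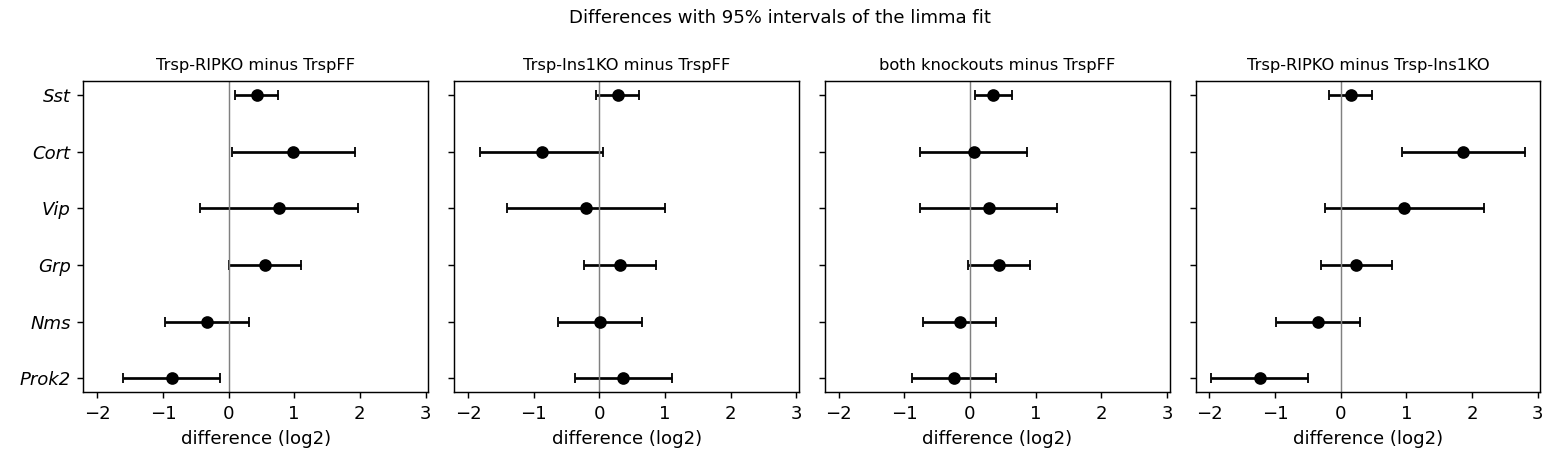
Difference of each member (log2) with its 95% interval from the limma fit, in 4 panels for Trsp-RIPKO minus TrspFF, Trsp-Ins1KO minus TrspFF, both knockouts minus TrspFF, and Trsp-RIPKO minus Trsp-Ins1KO. The widest gap is Cort at 1.87 between the knockouts, with Prok2 at -1.23 in the same panel; intervals that leave out 0 here are not adjusted for the number of genes tested.

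In each of the 4 comparisons 0 of 6 members passed the adjusted threshold. Among all tested genes 1.66% passed for Trsp-RIPKO minus TrspFF (0.0962% higher and 1.56% lower), 1.82% (0.241% and 1.58%) for Trsp-Ins1KO minus TrspFF, 3.7% (0.564% and 3.14%) for both knockouts minus TrspFF, and 0.0175% for Trsp-RIPKO minus Trsp-Ins1KO (limma). At an unadjusted p under 0.05, Sst, Cort, Grp and Prok2 were past the mark for Trsp-RIPKO minus TrspFF (4 of 6, against 23.9% of all genes). The count was 0 for Trsp-Ins1KO minus TrspFF (26% of all genes). It was 1, Sst, over both knockouts (26.1%), and 2, Cort and Prok2, between the knockouts (18.4%). By separation of arrays, Trsp-RIPKO lay wholly above TrspFF for 3 members and wholly below for 2, where 28% and 30.2% of all genes did so. Trsp-Ins1KO lay above TrspFF for 2 members and below for 1 (31.7% and 26.4% of all genes). Both knockouts together lay above TrspFF for 2 and below for 0 (16.9% and 17.5%). Trsp-RIPKO lay above Trsp-Ins1KO for 3 and below for 1 (22.9% and 35.8%). A difference above 0 was seen for 4 of 6 members in each comparison, beside 48.1%, 53.1%, 51.3% and 42.1% of all genes in the order given. The median difference of the 6 members was 0.49, 0.15, 0.17 and 0.19 in these comparisons, beside -0.01, 0.02, 0.01 and -0.05 for all tested genes. With 6 members these counts describe the group and are no test of it.

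Markers of cortex and hippocampus ran in an array order much like that of several members. Their mean level over 15 genes was -0.55 on both Trsp-RIPKO arrays, -1.24 and -2.69 on the Trsp-Ins1KO arrays, and -1.42 and -0.79 on the TrspFF arrays. All 15 had a positive difference for Trsp-RIPKO minus Trsp-Ins1KO, against 42.1% of all tested genes (median 1.69, 0 past the threshold). Slc17a7, the vesicular glutamate transporter of cortical neurons, was at -0.03 and 0.02 in Trsp-RIPKO, -1.17 and -1.77 in Trsp-Ins1KO, and -0.88 and -0.34 in TrspFF. The cortical transcription factor gene Neurod6 had its lowest level, -5.24, on Trsp-Ins1KO replicate 2. The log2 of the summed marker level was 4.50 to 4.56 in Trsp-RIPKO, 3.22 to 3.99 in Trsp-Ins1KO and 3.86 to 4.19 in TrspFF. All 3 defining markers, Slc17a7, Neurod6 and Tbr1, were well above background on every array. The arrays with the 3 highest marker means, both of Trsp-RIPKO and TrspFF replicate 2, also held the 3 highest levels of Cort and of Vip and the 3 lowest of Prok2. Over all 6 arrays the order of Prok2 was the reverse of the marker order. TrspFF replicate 1 had a lower marker mean than Trsp-Ins1KO replicate 1, but a higher Cort level. It also held the lowest Vip level. Trsp-Ins1KO replicate 2 had the lowest marker mean and an Sst level above both TrspFF arrays. The 3 highest levels of Sst and of Grp and the 3 lowest of Nms each included a Trsp-Ins1KO array. The share of all genes that split the arrays as the markers did is not given here. Whether the amount of cortical tissue had a part in the values of any member was not tested. In tissue RNA, fewer cells of a type and less RNA per cell cannot be told apart.

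**Figure D3:**
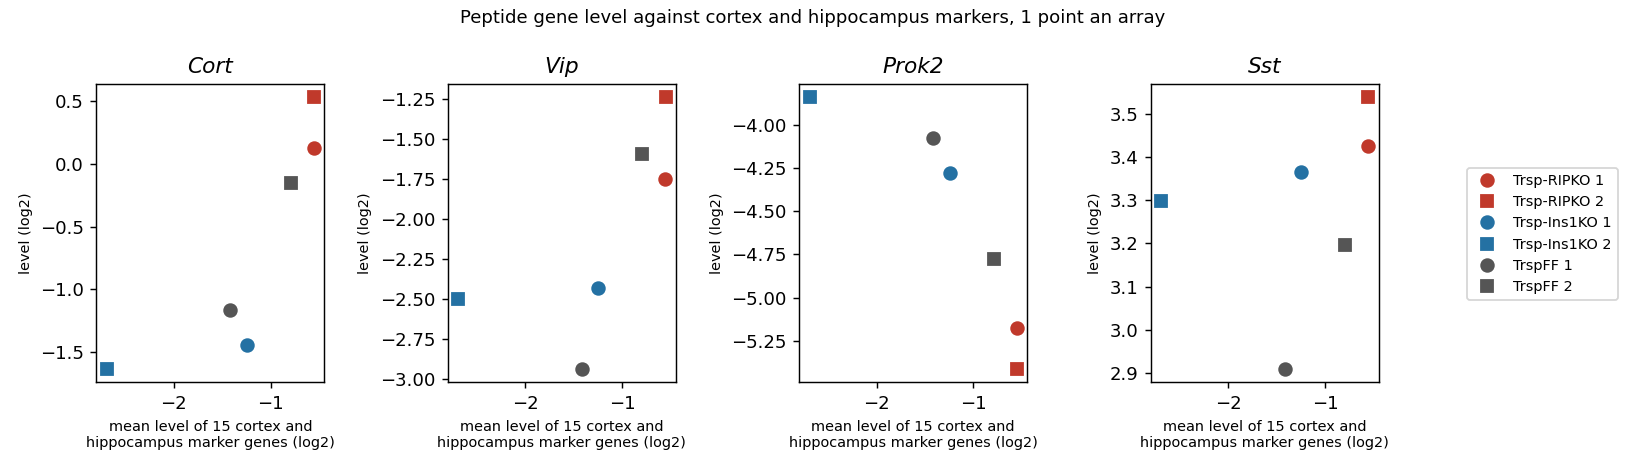
Level of Cort, Vip, Prok2 and Sst (log2, vertical axis) against the mean level of 15 cortex and hippocampus marker genes (log2, horizontal axis), with 1 point for each of the 6 arrays, coloured by genotype. The arrays with the highest marker mean, about -0.55 in Trsp-RIPKO, hold the highest Cort and the lowest Prok2; Trsp-Ins1KO replicate 2, at -2.69, stands alone on the left.

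Markers of cortical interneurons, the cells for which Cort is best known outside the hypothalamus, had similar means over the arrays, while single genes moved both ways. Their mean level over 17 tested genes was -0.25 to -0.20 in Trsp-RIPKO, -0.30 to -0.25 in Trsp-Ins1KO and -0.31 to -0.30 in TrspFF, with 0 past the threshold in any comparison. These means did not overlap between genotypes, by narrow margins, and 8 of the 17 had a positive difference for Trsp-RIPKO minus Trsp-Ins1KO. Single differences in that comparison ran from -0.82 to 1.19. At an unadjusted p under 0.05 (limma) 3 were higher and 3 lower, beside 18.4% of all genes in either direction. Lhx6, the transcription factor of somatostatin and parvalbumin interneurons, was at 4.09 and 3.61 in Trsp-RIPKO, 3.72 and 3.71 in Trsp-Ins1KO, and 3.94 and 4.02 in TrspFF. Chodl, a marker of long-range somatostatin cells, differed by 0.96 for Trsp-Ins1KO minus TrspFF (SE 0.217, limma, adjusted p = 0.0935). For Trsp-RIPKO minus Trsp-Ins1KO it differed by -0.82 (limma, adjusted p = 0.263), the lowest value of the list and opposite in sign to Cort. Npy had the highest value in that comparison, 1.19 (SE 0.361, limma, adjusted p = 0.263), with the sign of Cort. Htr3a, a serotonin receptor subunit of the interneurons that include Vip cells, differed by 1.02 between the knockouts (SE 0.208, limma, adjusted p = 0.263). Vip had the same sign, and Calb2 of the same list the opposite one, at -0.68 (SE 0.269, limma, adjusted p = 0.272).

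Of the hypothalamic markers tested, 16 or 17 of 17 were well above background on each array, Sim1 being the one that was not on both Trsp-RIPKO arrays and on Trsp-Ins1KO replicate 1. Hcrt, the orexin gene, lay between 4.12 and 5.16 and Oxt, oxytocin, between 4.65 and 5.84. Ghrh and Otp were below the detection filter, and 17 of 19 markers were tested. Their mean level was 0.49 and 0.38 on the Trsp-RIPKO arrays, 1.05 and 1.07 on the Trsp-Ins1KO arrays, and 0.61 and 0.30 on the TrspFF arrays. Of the 17, 0 had a positive difference for Trsp-RIPKO minus Trsp-Ins1KO, against 42.1% of all genes, and 0 passed the threshold. Sim1 is counted in the 17 and in the means, although it passed the filter only through TrspFF. Its knockout levels, -6.95 to -5.97, lay near the faintest detected ones, so the sign of its difference between the knockouts carries little weight. Choroid plexus markers, 13 genes, averaged -0.40 to -0.26 in Trsp-RIPKO, -0.78 and -3.30 in Trsp-Ins1KO and -0.35 to 0.12 in TrspFF. The low array there was again Trsp-Ins1KO replicate 2. Striatum markers, 11 genes, averaged -1.11 to -1.04 in Trsp-RIPKO, -1.15 to -1.08 in Trsp-Ins1KO and -0.48 to -0.18 in TrspFF. All 11 were lower over both knockouts, beside 48.7% of all genes. There 2 were called lower, against 3.14% of all genes. In that list Gpr6 fell over both knockouts (-0.68, SE 0.0676, adjusted p = 0.0211) and so did Adora2a (-2.09, SE 0.251, adjusted p = 0.0294; limma), calls that ended without any 1 of the 6 arrays, at differences of -0.49 to -0.70 and -1.54 to -2.52 over all alternatives. Against TrspFF, Gpr6 also passed in Trsp-RIPKO (-0.78, adjusted p = 0.0294) and in Trsp-Ins1KO (-0.58, adjusted p = 0.0469, limma). Adora2a passed in Trsp-Ins1KO (-2.41, limma, adjusted p = 0.0375). These 3 calls held in 6, 5 and 8 of 17 alternatives. The part of these markers in the member values was not tested.

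The receptors of these peptides showed no call: 0 of 12 tested passed in any of the 4 comparisons, and Nmur1, Prokr1 and Mrgprx2 were below the detection filter. Sstr1 to Sstr5 bind both somatostatin and cortistatin. Sstr4 was at -3.98 and -4.24 on the Trsp-RIPKO arrays, -3.72 and -3.85 on the Trsp-Ins1KO arrays, and -3.47 and -3.54 on the TrspFF arrays. All knockout arrays were lower than TrspFF, with differences of -0.60 in Trsp-RIPKO (SE 0.122, adjusted p = 0.0866) and of -0.44 over both knockouts (SE 0.106, adjusted p = 0.0902). Sstr1 was 0.29 higher over both knockouts (SE 0.0872, adjusted p = 0.133), again with no overlap of arrays. Sstr3, at 0.96 and 0.83 in Trsp-RIPKO, 0.39 and 0.28 in Trsp-Ins1KO and 0.47 and 0.60 in TrspFF, differed by 0.56 between the knockouts (SE 0.102, adjusted p = 0.263; limma). Sstr2 and Sstr5 differed by -0.01 and -0.07 over both knockouts, the Sstr2 value with an SE of 0.311.

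Vipr1 and Vipr2 bind vasoactive intestinal peptide, and Vipr2 is the form of the suprachiasmatic nucleus. Vipr1 was at 0.15 and 0.35 in Trsp-RIPKO, -0.56 and -2.37 in Trsp-Ins1KO, and -1.22 and -0.09 in TrspFF, so that Trsp-Ins1KO replicate 2 was low here as it was for the cortex markers. Its difference between the knockouts was 1.71 (SE 0.691, adjusted p = 0.275). Vipr2 differed by -0.14 over both knockouts (SE 0.326, adjusted p = 0.827), and Adcyap1r1, the receptor for the related peptide PACAP, by 0.27 (SE 0.105, adjusted p = 0.196). Grpr, the receptor of gastrin-releasing peptide, differed by 0.03 over both knockouts (SE 0.0896, adjusted p = 0.871) and Nmbr, its relative, by 0.60 (adjusted p = 0.356; limma).

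Nmur2, through which neuromedin S acts in the brain, was at -5.01 and -4.84 in Trsp-RIPKO, -3.90 and -3.83 in Trsp-Ins1KO, and -4.54 and -5.27 in TrspFF. Both Trsp-Ins1KO arrays were above all others, by 1.04 over TrspFF (SE 0.250, adjusted p = 0.101), and Trsp-RIPKO minus Trsp-Ins1KO was -1.06 (SE 0.250, adjusted p = 0.263; limma). Prokr2, the receptor of prokineticin 2 in the brain, differed from TrspFF by -0.41 in Trsp-RIPKO and -0.34 in Trsp-Ins1KO (SE 0.153 each, adjusted p = 0.200 and 0.235), values that share the TrspFF arrays. Prok2 itself had opposite signs in these comparisons.

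**Figure D4:**
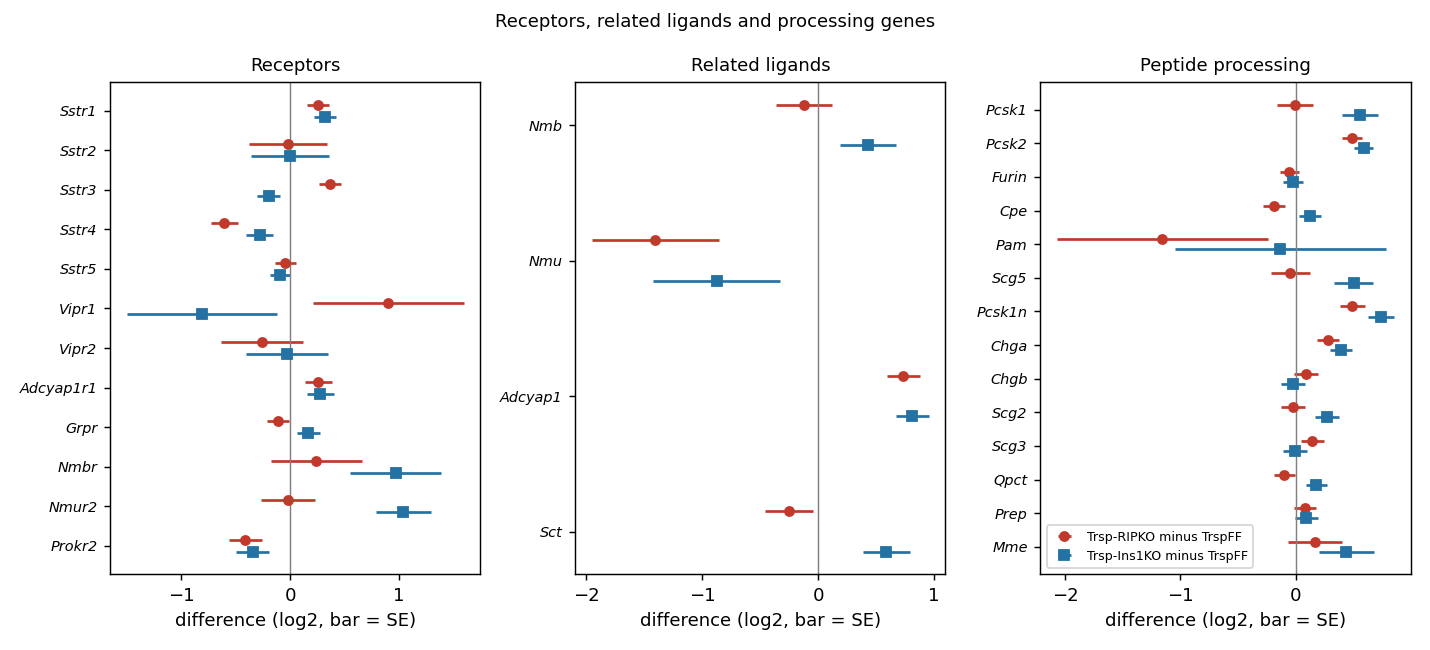
Differences (log2, with bars of 1 SE) of the tested receptors, related ligands and peptide processing genes, with red circles for Trsp-RIPKO minus TrspFF and blue squares for Trsp-Ins1KO minus TrspFF. Both comparisons use the same 2 TrspFF arrays. Nmu is drawn although it passed the detection filter only through TrspFF. Adcyap1, Pcsk2 and Pcsk1n lie to the right in both, and Vipr1 lies at 0.90 and -0.81 with wide bars.

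Among related ligands 4 of 8 were tested, with Prok1, Ghrh, Uts2 and Uts2b below the filter. Adcyap1, which encodes PACAP, the relative of vasoactive intestinal peptide that carries light input to the suprachiasmatic nucleus, rose over both knockouts. Its level was 0.96 and 1.17 in Trsp-RIPKO, 1.01 and 1.27 in Trsp-Ins1KO, and 0.42 and 0.24 in TrspFF. The difference was 0.77 over both knockouts (SE 0.124, adjusted p = 0.0483, limma), and it was 0.73 in Trsp-RIPKO (adjusted p = 0.0828) and 0.81 in Trsp-Ins1KO (adjusted p = 0.0704; limma). Nmb differed by 0.15 and Sct, secretin, by 0.17 over both knockouts (adjusted p = 0.687 and 0.595, limma). Nmu, the relative of Nms, was well above background on 1 of 2 Trsp-RIPKO arrays, 1 of 2 Trsp-Ins1KO arrays and both TrspFF arrays. It passed the filter only through TrspFF, so no difference is given.

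Of 14 genes for the processing and storage of peptides, 2 rose over both knockouts, against 0.564% of all genes with a call in that direction. Pcsk2, a convertase that cuts prosomatostatin among other precursors, was at 3.75 and 3.81 in Trsp-RIPKO, 3.84 and 3.92 in Trsp-Ins1KO, and 3.32 and 3.27 in TrspFF, a difference of 0.54 (SE 0.0722, adjusted p = 0.0374). Pcsk1n, an inhibitor of the convertase PC1/3, was at 6.02 on both Trsp-RIPKO arrays, 6.17 and 6.35 in Trsp-Ins1KO, and 5.62 and 5.44 in TrspFF, a difference of 0.61 (SE 0.0966, adjusted p = 0.0474; limma). Without any 1 of the 6 arrays, the calls of Adcyap1, Pcsk2 and Pcsk1n ended, at differences of 0.51 or more, and the mean of all Pcsk2 probes gave 0.15. Chga, a granule protein gene, differed by 0.34 (adjusted p = 0.0958, limma). None of the 14 passed in a single knockout or between the knockouts.

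Other genes of the suprachiasmatic nucleus gave 0 calls among 14 tested in any comparison. Six6, a transcription factor needed for the nucleus to form, was at -4.44 and -4.29 in Trsp-RIPKO, -3.31 and -3.45 in Trsp-Ins1KO, and -3.63 and -4.42 in TrspFF (Trsp-RIPKO minus Trsp-Ins1KO -0.99, SE 0.272, adjusted p = 0.263). Zfhx3, a regulator of peptide genes there, was -0.64 over both knockouts (SE 0.161, adjusted p = 0.0964). Avp, the vasopressin gene, which is also made in other hypothalamic nuclei, differed by 1.27 for Trsp-Ins1KO minus TrspFF (SE 0.348, adjusted p = 0.119; limma). All 3 defining markers, Six6, Lhx1 and Syt10, were well above background on every array, with Syt10 between -1.73 and 2.20, the extremes being the 2 TrspFF arrays. The mean of the 14 genes was 0.25 to 0.40 in Trsp-RIPKO, 0.64 to 0.67 in Trsp-Ins1KO and 0.33 to 0.69 in TrspFF.

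Clock genes, 17 tested, gave 0 calls as well. For Trsp-RIPKO minus Trsp-Ins1KO 10 of them had a positive and 7 a negative difference (median 0.13), beside 42.1% of all genes with a positive one. Per1, a clock gene that also responds to light and activity, was at 3.18 and 3.14 in Trsp-RIPKO, 1.80 and 2.21 in Trsp-Ins1KO, and 2.38 and 2.97 in TrspFF, a gap of 1.15 between the knockouts (SE 0.243, adjusted p = 0.263). Per2 (0.79), Nr1d1 (0.60) and Ciart (1.00) had positive differences in this comparison too, at adjusted p of 0.263 to 0.264 (limma), and Nfil3, a repressor in the clock's output, had the lowest value of the list at -0.25 (adjusted p = 0.264, limma). Prok2 differed by -1.23 in the same comparison. The labels give no hour of tissue collection, so its part in these values was not tested. In the growth hormone axis, which somatostatin restrains, 8 of 10 genes were tested with 0 calls. Dlx5 had the smallest p for Trsp-RIPKO minus TrspFF (-0.51, SE 0.0969, adjusted p = 0.0815, limma), and Ghr, the growth hormone receptor, differed by 0.39 for Trsp-Ins1KO minus TrspFF (adjusted p = 0.145, limma).

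The genes whose levels ran most like each member over the 6 arrays were read from 14190 genes with a usual symbol that were well above background throughout. Over 6 arrays many genes come close to any pattern: 179 had r above 0.95 with Sst, 205 with Cort, 131 with Vip, 102 with Grp, 18 with Nms and 159 with Prok2. For Sst the nearest were Meg3, a noncoding RNA (r = 0.997), Aak1 (0.997) and Ctcf (0.996). For Cort they were Thsd1, P3h3 and Tmem150a (0.993 to 0.995), and for Vip they included Mindy3 and Edn1 (0.996 each). Hsf1 led for Grp (0.998), with Trim28 (0.992) and Edc3 (0.990). Madcam1 led for Nms (0.994), with Ankrd34b and Noc2l (0.989 each). Cnga3 led for Prok2 (0.996), with Fbxl21 and Pdia6 (0.994 each). These are descriptions of 6 arrays that share slides.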

How the data were processed

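RNA of the hypothalamus was measured on 6 Agilent one-colour Cy3 arrays, 2 for each of Trsp-RIPKO, Trsp-Ins1KO and TrspFF. Per the file headers, the deposited scanner files were made with Agilent Feature Extraction 10.7.3.1 and give a background-subtracted intensity a spot, with quality flags (array annotation on build mm9). A deposited value table gives log2 values, centred for each probe over the arrays. Its scaling by the authors is not stated in the labels. It served as an alternative.

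Unflagged spots of a probe were averaged (43020 spots, 39429 probes). Processed signals were taken to log2 and each array's 75th percentile was subtracted. Probes were kept if 1 group or more had them well above background on its 2 arrays, and the brightest stood for its gene, which left 22863 tested genes. Of the probes 26055 (66.1%) received a symbol through their transcript accession and the GRCm38.p6 gene table. All 6 arrays entered 1 limma fit (limma 3.58.1, R 4.3.3, 4.87 degrees of freedom) with Benjamini-Hochberg adjustment at 0.05 over all tested genes. The SE of a difference had a median of 0.127. The number of arrays limits the precision. The method was tested on simulated data. The members and gene lists (receptors, related ligands, peptide processing, suprachiasmatic nucleus, clock, growth hormone axis, and markers of interneurons, cortex and hippocampus, striatum, choroid plexus, thalamus, pituitary and hypothalamus) were chosen with earlier results of these data known. Named are all members, tested receptors and related ligands, the 3 most similar genes of each member, defining markers, and from other lists up to 4 genes with the smallest p and those past the threshold. Calb2, Cga, Nfil3 and Npy were named after their values were seen. One of the genes most similar to Vip is not reported here. Alternatives covered background correction, scaling, the value table, filters, probe choice, the variance model, the samples fitted, a replicate block and leaving out each array. Promoter sequences are from RefSeq, build GRCm38.p6. Grp had no entry there.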

Additional observations from a re-analysis of the deposited data

Results flagged for a closer look

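Cort differed from TrspFF in opposite directions in the knockouts. Its difference from TrspFF was 0.99 in Trsp-RIPKO, where both arrays were above both TrspFF arrays, and -0.88 in Trsp-Ins1KO, where both were below. Neither passed the threshold (limma, adjusted p = 0.195 and 0.210). The difference between the knockouts, 1.87, had an adjusted p of 0.263 in the limma fit of all arrays and 0.0451 with only the 4 knockout arrays. It tests whether the knockouts differ and not where TrspFF lies between them. Both comparisons with TrspFF share the same 2 control arrays, which lay 1.01 apart for Cort.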

How the results depend on the processing

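With 2 arrays a group, 1 array can decide a value. Over the scaling, filter, probe, variance, block and leave-one-out settings on the scanner files, 365 of 378 values of single members kept their direction and their side of the threshold, 10 changed sign and 3 gained a call. The number of members called stayed at 0 in all alternatives except for Trsp-RIPKO minus Trsp-Ins1KO, where it was 1 (Cort, 1.87) with only the groups compared and ranged from 0 to 1 on leaving out an array (1 without either TrspFF array). Sign changes on leaving out 1 array gave ranges of -0.45 to 0.56 (Cort), -0.60 to 0.10 (Prok2), -0.39 to 0.96 (Vip) and -0.330 to 0.0116 (Nms) for both knockouts minus TrspFF, -0.33 to 0.35 (Nms) and -0.87 to 0.47 (Vip) for Trsp-Ins1KO minus TrspFF, and -0.68 to 0.00148 (Nms) for Trsp-RIPKO minus Trsp-Ins1KO. With normexp Nms was -0.0795 for Trsp-Ins1KO minus TrspFF. The cause of these changes was not tested.

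With the names of the deposited value table, Trsp-RIPKO minus TrspFF was -0.88 (Cort), 0.0106 (Nms), 0.37 (Prok2) and -0.20 (Vip). Trsp-Ins1KO minus TrspFF was then 0.99, -0.33, -0.87 and 0.77 for the same genes. Trsp-RIPKO minus Trsp-Ins1KO was -1.87 (Cort), -0.24 (Grp), 0.34 (Nms), 1.23 (Prok2), -0.15 (Sst) and -0.97 (Vip). The exchanged names account for these signs.

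Counts of all genes called (379, 416, 847 and 4 in the order Trsp-RIPKO minus TrspFF, Trsp-Ins1KO minus TrspFF, both knockouts minus TrspFF, Trsp-RIPKO minus Trsp-Ins1KO) were 0, 25, 170 and 1 without a filter and 784, 1240, 1728 and 1 with trend and robust. With only the groups compared they were 0, 0 and 319 (not fitted separately for both knockouts minus TrspFF). Median scaling gave 224 for the first and moved all its differences up by 0.109 (0.0863, 0.0976 and 0.0225 in the others). The last count was 1 with normexp and 2 with the filter on all arrays. Leaving out 1 array gave 0 to 495, 0 to 511, 0 to 145 and 0 to 319.

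The replicate block gave 0, 0, 119 and 0 genes and changed no member's call. Deviations of arrays with the same number correlated at -0.03, 0.09 and -0.02 between groups, so the numbers are not taken to pair the samples. The block ended the calls of Adcyap1 (adjusted p = 0.0891), Pcsk2 (0.0772) and Pcsk1n (0.0929; limma).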

Other observations

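Thalamus markers gave 0 calls among 9 tested genes, with a mean level of 0.46 to 0.70 in Trsp-RIPKO, 0.67 to 1.02 in Trsp-Ins1KO and 0.73 to 0.74 in TrspFF. Pituitary markers were mostly below the detection filter: 3 of 9 were tested, and Gh and Prl, the growth hormone and prolactin genes, were not. Cga, the common subunit of pituitary glycoprotein hormones, was well above background on both TrspFF arrays and on 0 of the 4 knockout arrays. Its level was -1.78 on TrspFF replicate 1 and -5.88 on TrspFF replicate 2, where the faintest detected level was -6.33. On the knockout arrays it lay between -8.04 and -6.64. Cga passed the filter only through TrspFF and was named after its values were seen.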
